A study of Mus musculus with 10 samples.

Results

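Collagens are the triple-helical proteins of the extracellular matrix. Fibrillar types form the banded fibrils of skin, tendon, bone and cartilage, type IV builds the mesh of basement membranes, and other types coat fibrils, span cell membranes or form short networks. Newly made chains are hydroxylated on proline and lysine, glycosylated, folded, trimmed and cross-linked before they serve in the matrix. VHL is the protein that recognises targets for a ubiquitin ligase. It marks hydroxylated hypoxia-inducible factors for destruction, and several collagen-modifying enzymes, among them P4ha1, P4ha2, Plod2 and Lox, are known targets of those factors. VHL has also been reported to bind hydroxylated collagen IV chains.

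The 42 collagen genes described here were all genes with a single annotated symbol made of Col, a number, the letter a and a number, out of 18820 genes measured. They were covered by 46 of 21218 single-gene probe sets, and 4 of them had more than 1 probe set, of which the one with the highest mean over all arrays was used. Col7a1 and Col9a3 were each measured only by a probe set annotated to more than 1 gene and were not analysed here. The genes were grouped into 11 fibrillar, 9 basement membrane, 7 cartilage, 8 fibril-associated, 6 beaded filament, 3 short-chain network, 4 transmembrane and 2 other collagens. The cartilage group shares 4 members with the fibrillar group, and Col17a1 counts as both basement membrane and transmembrane.

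Teratomas are mixed-tissue tumours that arise from injected pluripotent cells. These were grown from Vhl-/- mouse embryonic stem cells (J1, Sv/129) that expressed a human VHL cDNA and were injected under the skin of both flanks of female nu/nu mice. There were 4 arrays of P81S, 3 of R167Q and 3 of wildtype VHL, all on the same Vhl-/- background. P81S tumours are labelled apoptosis-resistant and the others apoptotic. P81S was represented by 2 clones with 2 arrays each, but the labels do not pair arrays with clones. No label states whether tumours with the same VHL form had different hosts or cultures. The sample titles call the arrays biological replicates. Each p-value reflects the spread among tumours of the same genotype, estimated jointly from all genotypes. In P81S this spread includes any difference between its 2 clones, and part of it may be technical. Clone and genotype cannot be told apart.

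Expression is given as deposited log2 values, on which a difference of 1 is a 2-fold difference. The median of an array over its probe sets ranged from 6.97 to 7.11. The arrays held transcripts of several tissues, as in a teratoma. The mean log2 value of the 5 measured neural markers ran from 10.58 to 11.86, that of the 8 fibroblast and mesenchyme markers from 8.95 to 10.13, and that of the 6 gut and glandular epithelium markers from 7.27 to 9.54. P81S replicate 1 stood apart from the other P81S arrays, with correlations of 0.966 to 0.970 across all probe sets, against 0.979 to 0.986 among P81S replicates 2 to 4. A tumour with fewer cells of a type and one with less RNA per cell cannot be told apart in bulk tissue.

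Fibrillar collagens of connective tissue spread widely among the P81S tumours, and none was called between P81S and wildtype. Col1a1, the main chain of type I collagen, read 11.40, 8.30, 9.62 and 9.27 in P81S tumours (replicates 1 to 4), 10.02, 8.98 and 10.02 in R167Q tumours and 9.20, 8.91 and 9.66 in wildtype tumours. P81S replicate 1 was the highest of the 10 arrays and P81S replicate 2 the lowest, so the groups overlapped. Col1a1 averaged 9.65 ± 1.29 in P81S (SD, n = 4) and 9.26 ± 0.38 in wildtype (SD, n = 3), a log2 difference of 0.39 with a 95% interval of -0.88 to 1.66. Without P81S replicate 1 the difference was -0.19, so 1 tumour set its sign. Col1a1 lies on chromosome 11. Genes of that chromosome with an above-median level had a median deviation from their mean over the 10 arrays of -0.30 in P81S replicate 1 and -0.26 in P81S replicate 2. With that chromosomal shift subtracted the Col1a1 difference was 0.58.

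Col1a2, the partner chain, read 10.52, 7.91, 8.75 and 8.54 in P81S tumours, 9.29, 8.67 and 9.24 in R167Q tumours and 8.77, 8.47 and 9.11 in wildtype tumours. Col3a1, the type III chain of skin and vessel walls, read 9.78, 7.19, 8.07 and 7.79 in P81S, 8.56, 7.65 and 8.82 in R167Q and 8.06, 8.01 and 8.65 in wildtype. Both had the same highest array, P81S replicate 1, and overlapping groups. Col5a2, a chain of the type V collagen that starts and limits fibrils, read 7.80, 6.68, 6.94 and 6.59 in P81S, 7.44, 7.06 and 7.10 in R167Q and 6.90, 7.0 and 7.08 in wildtype. The P81S-minus-wildtype differences were 0.14 for Col1a2, -0.03 for Col3a1, 0.06 for Col5a1 and 0.01 for Col5a2, and none passed the test. Without P81S replicate 1 they were -0.39, -0.56, -0.14 and -0.26, again with none called. In limma's test over all genes, 0 of the 11 fibrillar collagens differed between P81S and wildtype, with 1 at an unadjusted p under 0.05, where 43% of all genes were. The same count was 0 of 11 for R167Q against wildtype, where 0.0903% of all genes were called, with 1 at an unadjusted p under 0.05, where 9.73% of all genes were.

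**Figure D1:**
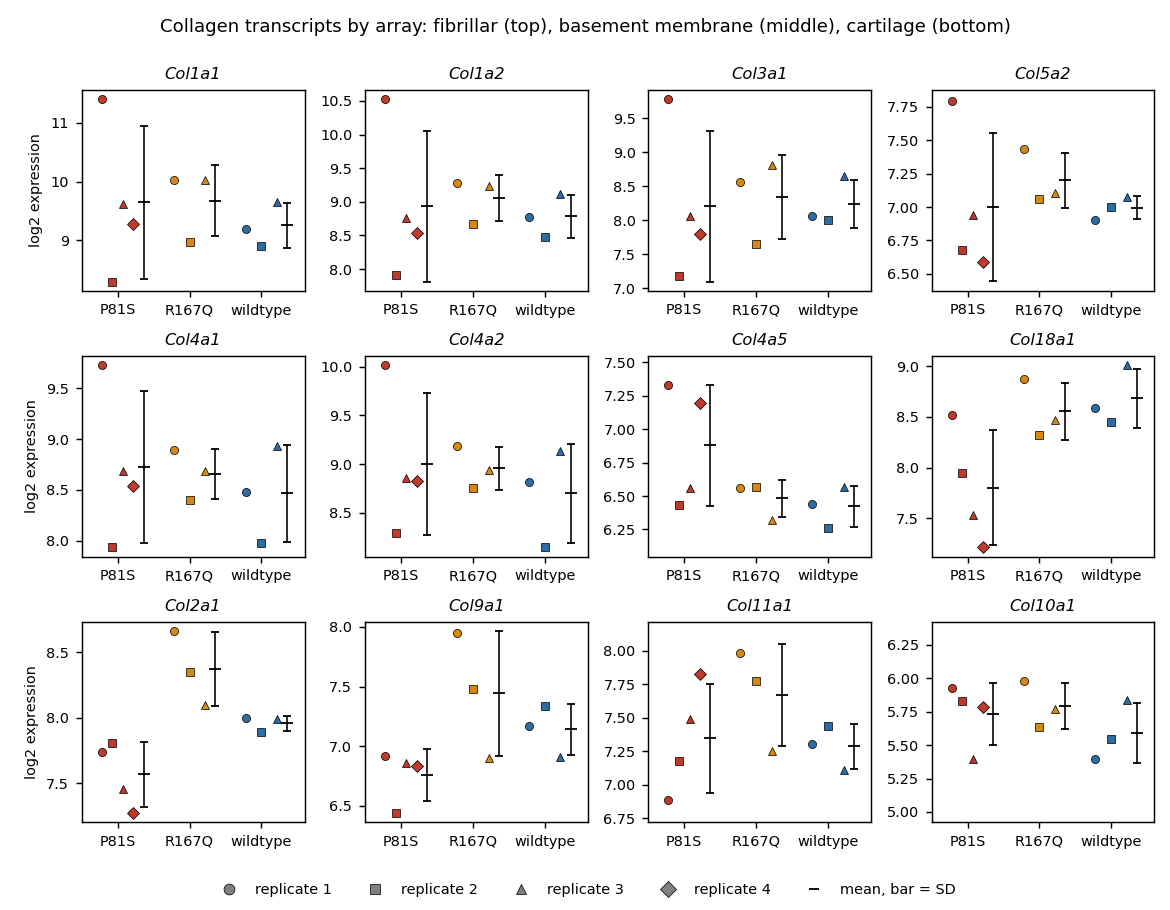
Deposited log2 expression of 12 collagen genes (vertical axis) in P81S, R167Q and wildtype teratomas (horizontal axis), 1 point per array with the mean and SD beside each group. P81S replicate 1 (circle) is the highest point for Col1a1, Col1a2, Col3a1, Col5a2, Col4a1, Col4a2 and Col4a5, while Col2a1 is lower in every P81S tumour than in any R167Q tumour.

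Type IV collagen, the network-forming chain set of basement membranes, was also highest on that array for its main chains, Col4a1 and Col4a2, whose genes lie head to head. Col4a1 read 9.73, 7.94, 8.69 and 8.54 in P81S tumours, 8.89, 8.40 and 8.68 in R167Q tumours and 8.48, 7.98 and 8.94 in wildtype tumours. Col4a2 read 10.02, 8.29, 8.86 and 8.82 in P81S tumours, 9.19, 8.75 and 8.94 in R167Q tumours and 8.82, 8.14 and 9.14 in wildtype tumours. P81S replicate 1 was the highest for both genes, P81S replicate 2 the lowest for Col4a1 and wildtype replicate 2 the lowest for Col4a2. Their P81S-minus-wildtype differences were 0.26 (95% interval -0.54 to 1.05) and 0.30 (-0.49 to 1.08), and without P81S replicate 1 they were -0.08 and -0.04. Both genes lie on chromosome 8. Genes of that chromosome with an above-median level were shifted by 0.08 to 0.14 in the P81S arrays. The shifts were -0.11 to 0.01 in the R167Q arrays and -0.15 to 0.01 in the wildtype arrays. With the shift of each array subtracted, the P81S-minus-wildtype differences were 0.08 and 0.12.

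Because this gene pair is transcribed in opposite directions, the stretch shared by the promoter windows of both genes is shown (RefSeq, GRCm38.p6, chr8:11312777-11312854, + strand). It was not trimmed to bases upstream of both starts, so it may reach into either transcript. Capitals mark the GC box, GGGCGG on either strand.
Col4a1 and Col4a2: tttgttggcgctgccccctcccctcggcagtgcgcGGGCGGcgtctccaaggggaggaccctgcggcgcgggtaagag

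Among the other basement membrane collagens, Col4a5 and Col4a6, which are chains of smooth muscle and epithelial basement membranes, had positive differences without a call. Col4a5 read 7.33, 6.43, 6.56 and 7.20 in P81S, 6.56, 6.56 and 6.32 in R167Q and 6.44, 6.26 and 6.57 in wildtype. Col4a6 read 6.95, 5.78, 6.26 and 7.22 in P81S, 6.39, 6.44 and 6.25 in R167Q and 6.31, 5.72 and 5.98 in wildtype. P81S replicates 1 and 4 were high for both and replicate 2 was low. The P81S-minus-wildtype differences were 0.46 (95% interval -0.04 to 0.95) and 0.55 (-0.12 to 1.22). Without P81S replicate 2 they were 0.61 and 0.81, and both were then called by limma, with adjusted p of 0.0496 for Col4a5 and 0.0294 for Col4a6. Without P81S replicate 1 they were 0.30 and 0.42, and neither was called (adjusted p 0.282 and 0.331). Col4a3 and Col4a4, chains of kidney and other specialised membranes, differed by 0.02 and 0.07.

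**Figure D2:**
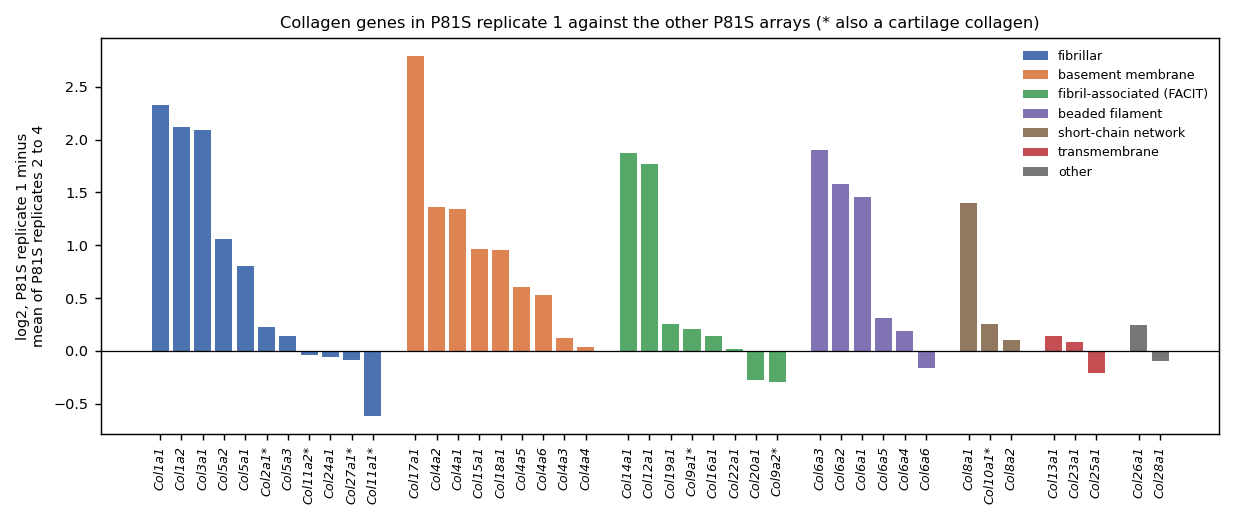
Log2 level of each collagen gene in P81S replicate 1 minus its mean in P81S replicates 2 to 4 (vertical axis), with bars coloured by collagen type and sorted within it. Of 42 genes, 13 exceed 1, against 4.63% of all genes, and 0 of the 7 cartilage collagens (marked *) do.

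The tumour measured as P81S replicate 1 carried the highest value of the 10 arrays for 17 of the 42 collagen genes, 40.5%, against 15.9% of all genes. It lay more than 1 log2 unit above the mean of the other P81S tumours for 13 collagen genes, 31.0%, against 4.63% of all genes. These comprised fibrillar Col1a1, Col1a2, Col3a1 and Col5a2, basement membrane Col4a1, Col4a2 and Col17a1, beaded filament Col6a1, Col6a2 and Col6a3, fibril-associated Col12a1 and Col14a1, and the short-chain Col8a1. The largest gap was that of Col17a1, the hemidesmosome collagen of basal keratinocytes, which read 9.30 there and 6.31 to 6.84 in the other P81S tumours. All 9 basement membrane collagens were higher in this tumour than in the mean of the other P81S tumours, where 48.8% of all genes were. Of the 7 cartilage collagens, 0 exceeded that mean by 1, where 4.63% of all genes did.

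Markers of several other tissues, but not of all, were also highest in this tumour. The mean of 6 squamous epithelium markers was 9.56 in P81S replicate 1 and 6.43 to 7.01 on the other 9 arrays. The 7 endothelium markers averaged 9.74, against 7.49 to 9.20, and the 8 fibroblast and mesenchyme markers 10.13, against 8.95 to 9.64. The 6 gut and glandular markers averaged 9.54, against 7.27 to 8.77. The 7 parietal and visceral endoderm markers averaged 9.72, against 7.95 to 9.25, and the 5 smooth muscle markers 9.13, against 7.26 to 8.91. Within the range of the other arrays lay the 8 chondrocyte markers, with 6.61 against 6.43 to 7.09, and the 5 neural markers, with 11.56 against 10.58 to 11.86. The part of these tissues in the collagen values was not tested.

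Median SDs among the 4 P81S tumours were 0.40 for fibrillar and 0.65 for basement membrane collagens and 0.20 over all genes. Without replicate 1 they were 0.18, 0.37 and 0.16.

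Of the 42 collagen genes, 4 were called between P81S and wildtype at an adjusted p under 0.05, 9.52%, where 34.7% of all 18820 genes were called. Col25a1, Col26a1 and Col6a6 were higher, against 17.2% of all genes, and Col18a1 was lower, against 17.5%. The median absolute log2 difference was 0.18 over the collagen genes and 0.29 over all genes, and the median standard error was 0.22 and 0.15. The groups did not overlap for 5 of the 42, against 40.6% of all genes. By type, 1 of 9 basement membrane, 1 of 6 beaded filament, 1 of 4 transmembrane and 1 of 2 other collagens were called, and 0 of 11 fibrillar, 0 of 7 cartilage, 0 of 8 fibril-associated and 0 of 3 short-chain network collagens. Of the 38 that were not called, 26 had a 95% interval that stayed within 1 log2 unit of 0, while 12 reached further, among them Col1a1, Col3a1, Col6a3 and Col17a1.

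**Figure D3:**
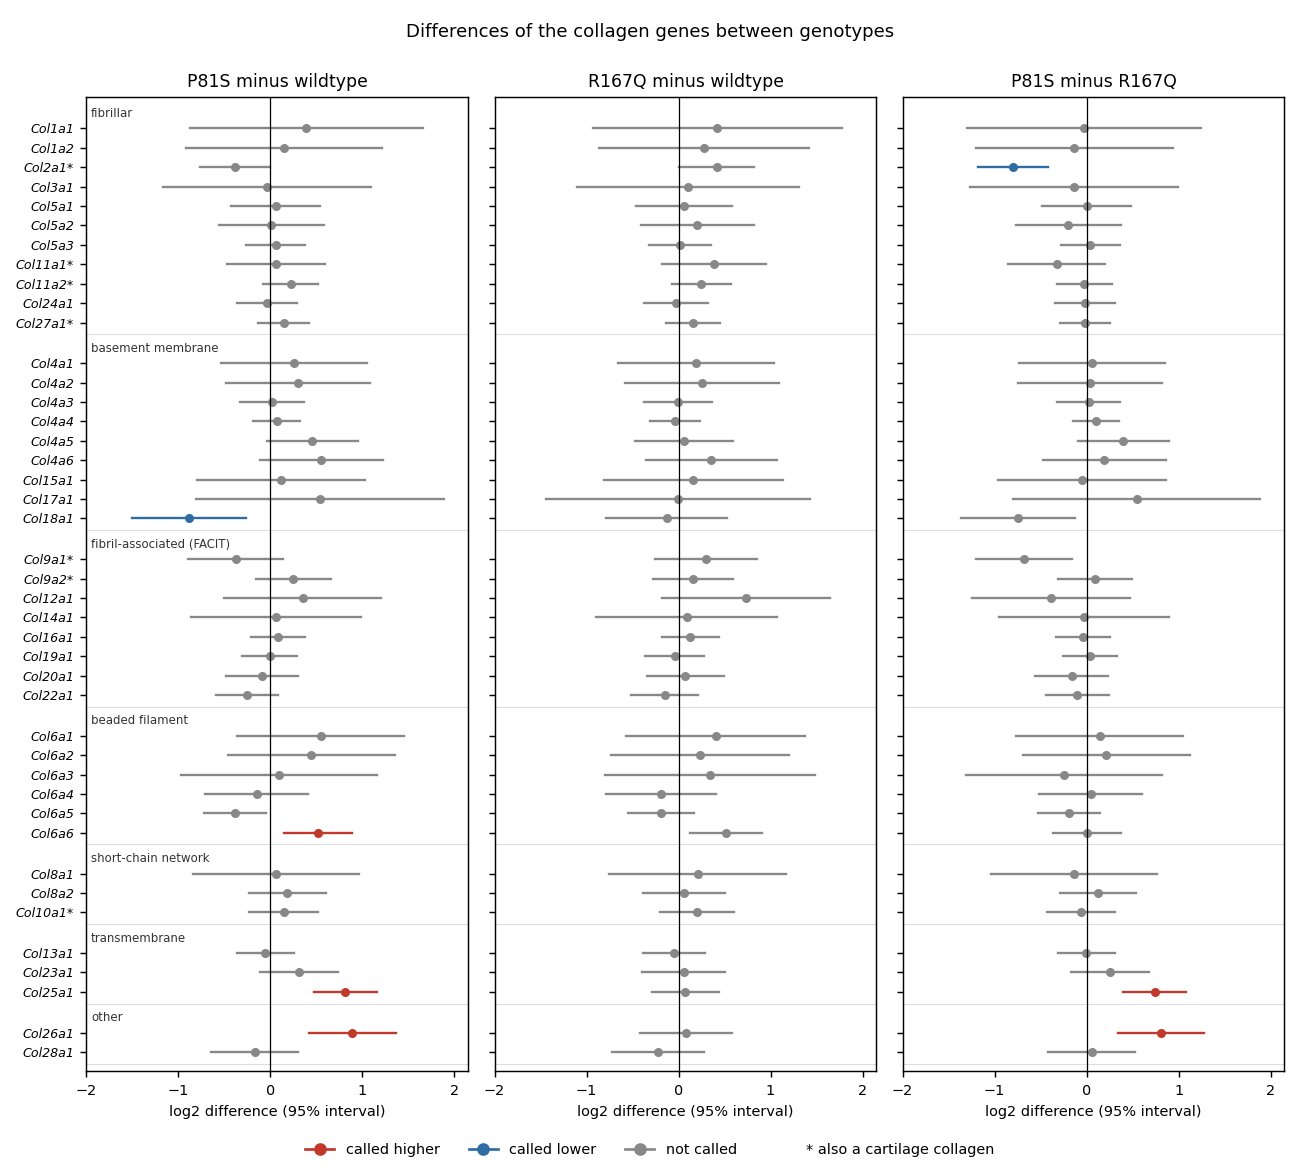
Log2 difference of each collagen gene (horizontal axis, with its 95% interval) for P81S minus wildtype, R167Q minus wildtype and P81S minus R167Q, with genes grouped by type down the page. Col25a1 and Col26a1 are called higher in both P81S comparisons, Col6a6 higher and Col18a1 lower in P81S than in wildtype, Col2a1 lower in P81S than in R167Q, and no gene is called for R167Q against wildtype.

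Col25a1 encodes a membrane-spanning collagen of neurons whose shed part is known from amyloid plaques. It read 7.45, 7.46, 7.64 and 7.86 in P81S tumours, 6.77, 7.06 and 6.75 in R167Q tumours and 6.94, 6.67 and 6.76 in wildtype tumours. Every P81S tumour lay above every other tumour. The difference from wildtype was 0.81 ± 0.16 (SE), 1.76-fold, with an adjusted p of 0.00206 in limma, and from R167Q 0.74 ± 0.16, with an adjusted p of 0.00653. Without P81S replicate 1 the difference from wildtype was 0.87.

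Beside it, all 5 measured neural markers were higher in P81S than in wildtype, and 4 were called, where 17.2% of all genes were called higher. The mean of the list was 11.56 to 11.86 in P81S, 10.87 to 11.21 in R167Q and 10.58 to 10.90 in wildtype tumours. The part of neural tissue in the Col25a1 values was not tested. The 250 bases upstream of its start are shown because this gene separated P81S from both other genotypes (RefSeq, GRCm38.p6, chr3:130180595-130180844, + strand). Capitals mark CCAAT, 1 match, and GGGCGG, 2 matches, on either strand.
Col25a1: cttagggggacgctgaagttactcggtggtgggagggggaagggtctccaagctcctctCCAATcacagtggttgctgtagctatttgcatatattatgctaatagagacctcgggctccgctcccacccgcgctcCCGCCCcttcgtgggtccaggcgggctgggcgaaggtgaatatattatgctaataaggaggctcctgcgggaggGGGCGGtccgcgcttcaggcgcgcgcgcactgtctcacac

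Such boxes are common. CCAAT was found in 33.8% and GGGCGG in 32.7% of 32851 mouse windows of the same length, and in 12 and 21 of 37 windows of the 34 collagen genes with an entry. TATAAA was in 5 of the 37 and in 12.4% of all windows. ACGTG or GCGTG, the core of hypoxia response elements, was in 11 of the 37 and in 38.6% of all windows. Motifs were searched on both strands, and a match is not evidence of binding.

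Col26a1 encodes a collagen first described in testis and ovary. It read 9.13, 8.64, 9.10 and 8.92 in P81S tumours, 8.22, 8.45 and 7.74 in R167Q tumours and 8.41, 7.69 and 8.07 in wildtype tumours, and every P81S tumour lay above the rest. P81S exceeded wildtype 1.85-fold (0.89 ± 0.21, adjusted p 0.00751 in limma). P81S also exceeded R167Q (0.81 ± 0.21, adjusted p 0.0192). The R167Q call ended without P81S replicate 3 (adjusted p 0.0524), R167Q replicate 1 (0.0547) or R167Q replicate 3 (0.0861).

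Col6a6, a chain of the type VI collagen that forms beaded filaments around cells, read 6.68, 6.90, 6.72 and 6.92 in P81S, 6.98, 6.71 and 6.72 in R167Q and 6.30, 6.58 and 5.99 in wildtype tumours. All P81S and R167Q tumours lay above all wildtype tumours. P81S exceeded wildtype 1.43-fold (0.52 ± 0.17, adjusted p 0.0321 in limma). Its second probe set read between 5.19 and 5.49 on all arrays with a difference of 0.01. The call ended without P81S replicate 2 (adjusted p 0.0647), 3 (0.0508) or 4 (0.0725) and without wildtype replicate 1 (0.0761) or 3 (0.141). The other type VI chains were not called on the probe sets used. Differences of P81S from wildtype were 0.55 for Col6a1, 0.44 for Col6a2, 0.10 for Col6a3, -0.15 for Col6a4 and -0.38 for Col6a5, and the last of these had an interval of -0.72 to -0.04. Col6a5 was called without P81S replicate 1 (-0.46, adjusted p 0.0319). Its second probe set, which was not the one used, gave -1.19 ± 0.26 from wildtype (adjusted p 0.00482, no overlap) and -0.81 from R167Q (adjusted p 0.0484), and the average of both probe sets gave -0.78 from wildtype (adjusted p 0.00873).

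Col18a1, a basement membrane collagen whose end fragment is endostatin, an inhibitor of vessel growth, was lower in P81S. It read 8.52, 7.95, 7.53 and 7.21 in P81S tumours, 8.87, 8.32 and 8.47 in R167Q tumours and 8.59, 8.45 and 9.01 in wildtype tumours. P81S replicate 1 overlapped with both other groups and the other P81S tumours lay below them. The difference from wildtype was -0.88 ± 0.28, 1.84-fold lower, with an adjusted p of 0.0312 in limma. It ended without P81S replicate 3 (adjusted p 0.0786) or 4 (0.0694) or wildtype replicate 1 (0.0647) or 3 (0.131). Without P81S replicate 1 it was -1.12 with an adjusted p of 0.00272, and Col18a1 was then also lower than in R167Q (-0.99, adjusted p 0.00877).

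The 2 annotated start sites of Col18a1 differed in their upstream 250 bases, shown here because the probe set does not tell which is used (RefSeq, GRCm38.p6, - strand, chr10:77113706-77113955 and chr10:77166531-77166780). Capitals mark CCAAT or GGGCGG on either strand. The first holds neither and the second holds 1 and 3.
Col18a1 first site: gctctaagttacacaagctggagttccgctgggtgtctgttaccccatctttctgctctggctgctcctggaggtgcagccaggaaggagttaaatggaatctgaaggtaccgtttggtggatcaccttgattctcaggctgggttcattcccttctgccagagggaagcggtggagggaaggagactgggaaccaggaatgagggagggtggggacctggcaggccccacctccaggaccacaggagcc
Col18a1 second site: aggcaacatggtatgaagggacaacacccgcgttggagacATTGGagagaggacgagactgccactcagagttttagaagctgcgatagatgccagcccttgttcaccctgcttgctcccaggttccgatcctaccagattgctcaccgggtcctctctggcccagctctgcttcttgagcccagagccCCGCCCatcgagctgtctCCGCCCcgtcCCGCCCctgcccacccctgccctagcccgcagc

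**Figure D4:**
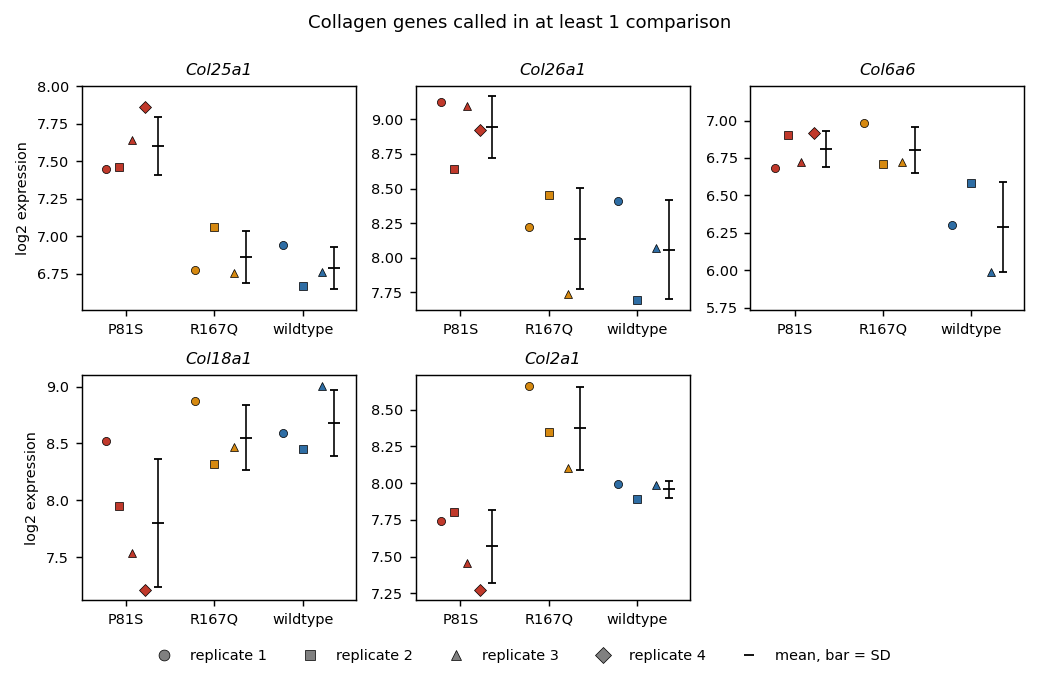
Deposited log2 expression (vertical axis) of the 5 collagen genes called in at least 1 comparison, in P81S, R167Q and wildtype teratomas (horizontal axis), 1 point per array with the mean and SD beside each group. Col25a1 and Col26a1 separate the P81S tumours from all others, Col18a1 overlaps through P81S replicate 1, and Col2a1 separates P81S from R167Q and also from wildtype.

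Of the 7 cartilage collagens, 1 was called between P81S and R167Q and 0 between P81S and wildtype. Between P81S and R167Q, 3 of the 42 collagen genes were called, 7.14%, where 22.5% of all genes were called, 12.4% higher and 10.1% lower. The groups did not overlap for 3 of the 42, against 30.7% of all genes. Besides Col25a1 and Col26a1, Col2a1, the main chain of cartilage fibrils, was lower. Col2a1 read 7.74, 7.81, 7.46 and 7.27 in P81S, 8.67, 8.35 and 8.10 in R167Q and 8.0, 7.89 and 7.99 in wildtype tumours. P81S lay lowest, wildtype in the middle and R167Q highest, with no overlap between groups. P81S differed from R167Q by -0.80 ± 0.17, 1.74-fold lower, with an adjusted p of 0.00738 in limma. The difference from wildtype was -0.39 for P81S (95% interval -0.77 to -0.01) and 0.41 for R167Q (0.01 to 0.82), and neither was called. The 2 comparisons share the wildtype tumours.

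Col9a1, a chain of the type IX collagen that coats cartilage fibrils, read 6.92, 6.44, 6.86 and 6.84 in P81S, 7.95, 7.48 and 6.90 in R167Q and 7.17, 7.34 and 6.91 in wildtype tumours. P81S replicate 1 lay just above R167Q replicate 3 and wildtype replicate 3, and R167Q replicate 3 lay below every wildtype tumour, so all 3 groups overlapped. The P81S-minus-R167Q difference of -0.68 had an adjusted p of 0.0603, and without R167Q replicate 3 it was called (-0.95, adjusted p 0.0167). It was also called under each of the 3 possible pairings of the P81S arrays into clones (adjusted p 0.0422, 0.0128 and 0.0332), with array weights (0.036) and with dim genes left out (0.0486). Col11a1, a type XI chain found inside cartilage fibrils, read 6.89, 7.18, 7.49 and 7.83 in P81S, 7.99, 7.78 and 7.25 in R167Q and 7.30, 7.44 and 7.11 in wildtype, with overlapping groups. Col9a2, Col10a1, the network collagen of hypertrophic chondrocytes, and Col11a2 differed between P81S and R167Q by 0.09, -0.06 and -0.02.

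Chondrocyte markers did not move as 1 group. Sox9, the master factor of cartilage, and Hapln1, a linker of cartilage proteoglycan, were higher in P81S than in wildtype by 0.50 and 1.01. No marker of the list was higher in P81S than in R167Q by more than 0.24. The largest R167Q-minus-wildtype difference of the list was 1.13, and 0 of the 8 were called, where 0.0903% of all genes were. Acan, the proteoglycan itself, was lower in P81S than in R167Q (-0.79). Without P81S replicate 1, 0 of the 8 markers were called between P81S and R167Q, where 26.1% of all genes were. The mean of the 8 markers was 6.43 to 7.09 in P81S, 6.73 to 6.94 in R167Q and 6.58 to 6.60 in wildtype tumours. The part of cartilage tissue in the collagen values was not tested.

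No collagen gene was called between R167Q and wildtype by limma's test (0 of 42, where 0.0903% of all genes were called). At an unadjusted p under 0.05 there were 2, Col2a1 and Col6a6, 4.76%, against 9.73% of all genes. The groups did not overlap for 3 of the 42, against 19.3% of all genes. The 3 largest positive differences were 0.74 for Col12a1, 0.51 for Col6a6 and 0.42 for Col1a1, and the 3 largest negative ones were -0.22 for Col28a1 and -0.19 for Col6a4 and Col6a5. Col12a1 read 9.04, 7.13, 7.28 and 7.43 in P81S, 8.06, 7.95 and 8.31 in R167Q and 7.44, 7.08 and 7.58 in wildtype tumours. All R167Q tumours lay above all wildtype tumours. Without P81S replicate 1 its R167Q-minus-wildtype difference was still not called (adjusted p 0.198). It was then called lower in P81S than in R167Q (-0.83, adjusted p 0.0053). All 7 cartilage collagens had a positive difference, with a median of 0.25. Intervals for 28 of the 42 stayed within 1 log2 unit of 0.

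Collagen biosynthesis genes, the enzymes and helpers that modify and trim the chains, were called at about the rate of all genes in either direction, mostly as lower in P81S. Of 22 measured collagen biosynthesis genes, 7 were called against wildtype, 6 lower and 1 higher, where 34.7% of all genes were called, 17.5% lower and 17.2% higher. Against R167Q 5 were called, all lower, where 22.5% of all genes were called, 10.1% lower. With array weights 12 were called against wildtype, 7 lower and 5 higher. Between R167Q and wildtype 0 were called by limma, with 3 at an unadjusted p under 0.05. The shares called in either direction were 31.8% for P81S against wildtype and 22.7% against R167Q, near those of all genes. By sign, 20 of the 22 were lower in P81S than in R167Q (median -0.30), against 8827 of 18820 genes (median 0.02). Against wildtype 14 of the 22 were lower (median -0.18), against 9097 of all genes (median 0.01). Markers of pluripotent cells moved in the same comparisons. All 5 were called lower in P81S, with a median difference of -3.46 from wildtype and -2.73 from R167Q, and their mean was 6.09 to 7.64 in P81S, 8.88 to 10.01 in R167Q and 9.88 to 10.77 in wildtype tumours. Of the 7 endoderm markers, 2 were called lower against wildtype and 0 higher, with a median of -0.68. Without P81S replicate 1, 6 of the 7 were called lower and 0 higher, with a median of -1.13, where 36.9% of all genes were called in either direction. The part of these cells in the biosynthesis, receptor and Col18a1 values was not tested.

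P3h1, which hydroxylates proline at a second position, read 7.26, 7.07, 7.06 and 6.85 in P81S, 7.91, 7.58 and 7.65 in R167Q and 8.03, 7.81 and 7.94 in wildtype. It differed from wildtype by -0.87 ± 0.14, 1.82-fold lower, with an adjusted p of 0.000945 in limma. Adamts14, which cuts off the front propeptide, read 6.29, 6.16, 6.00 and 6.17 in P81S, 7.16, 6.62 and 7.08 in R167Q and 6.91, 6.97 and 7.33 in wildtype, and differed from wildtype by -0.91 ± 0.17. Pcolce2, an enhancer of the enzyme that cuts off the back propeptide, read 7.62, 7.38, 7.26 and 7.83 in P81S, 8.47, 7.79 and 8.71 in R167Q and 8.51, 8.64 and 9.12 in wildtype. It differed from wildtype by -1.23 ± 0.24. In each of these 3 genes the P81S tumours lay below all wildtype tumours.

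The other called genes were Plod2, which hydroxylates lysine for cross-links, with -0.68, Crtap, the partner of P3h1, with -0.59, Colgalt1, which puts galactose on hydroxylysine, with -0.31, and P3h3, a relative of P3h1, with 0.39. The Crtap call ended without any 1 of 8 arrays, with adjusted p of 0.0528 to 0.15, and remained without P81S replicate 1 or R167Q replicate 2. The P3h3 call ended without P81S replicate 3 (adjusted p 0.0593) or 4 (0.0814) or wildtype replicate 1 (0.0653) or 3 (0.137). The Colgalt1 call ended without wildtype replicate 2 (0.0546) or 3 (0.0756), and averaging the probe sets of Colgalt1 gave 0.19, not called.

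Against R167Q, Plod2 had the smallest adjusted p of the list (-0.96, adjusted p 0.00184 in limma). It read 9.15, 9.68, 9.55 and 9.11 in P81S, 10.48, 10.39 and 10.14 in R167Q and 10.07, 9.92 and 10.18 in wildtype, so P81S lay below both. Of the other hypoxia-inducible factor targets named at the start, none was called in any comparison. Their P81S-minus-wildtype differences were 0.22 for P4ha1, 0.23 for P4ha2 and -0.21 for Lox. P4ha2 lies on chromosome 11, and it was called with the chromosomal shift subtracted (0.42, adjusted p 0.0491) and with array weights (0.55, adjusted p 0.0134). For R167Q minus wildtype P4ha1 had 0.53, at an unadjusted p of 0.00424 and an adjusted p of 0.325. It was called in that comparison under the pairing of P81S replicates 1 and 3 into a clone (adjusted p 0.0319), where 3.42% of all genes were. Without P81S replicate 1, P4ha1 was called higher in P81S than in wildtype (0.33, adjusted p 0.0433) and Lox lower (-0.91, adjusted p 0.0197). Lox was then also called lower in P81S than in R167Q (-1.12, adjusted p 0.0108). With array weights P4ha1 was called higher in P81S than in wildtype (0.37, adjusted p 0.0131). With all arrays at equal weight, P3h1, Pcolce2, Adamts14 and Bmp1, the back-propeptide protease, were called lower in P81S than in R167Q, as Plod2 was. Without R167Q replicate 1 only Adamts14 and Plod2 of these remained, with P3h1 at an adjusted p of 0.0514. The Pcolce2 call also ended without P81S replicate 2 (0.0657) or 3 (0.0842) or R167Q replicate 3 (0.141). The Bmp1 call ended without P81S replicate 2, 3 or 4, R167Q replicate 1 or 2 or wildtype replicate 1 or 2, with adjusted p of 0.0515 to 0.182.

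**Figure D5:**
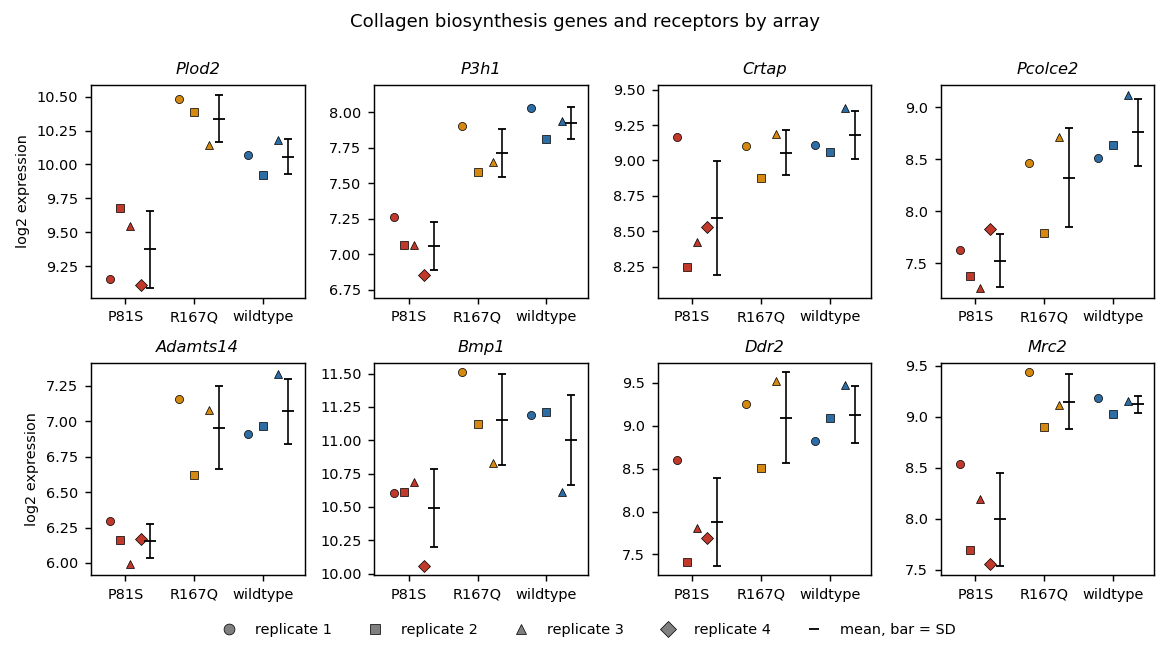
Deposited log2 expression (vertical axis) of 6 collagen biosynthesis genes and 2 collagen receptors called lower in P81S in at least 1 comparison, in P81S, R167Q and wildtype teratomas (horizontal axis), 1 point per array with the mean and SD beside each group. P3h1, Plod2, Adamts14 and Mrc2 show P81S tumours below all others.

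Of 9 measured collagen receptors, 2 were called lower in P81S against both genotypes, 22.2%, where 17.5% of all genes were called lower against wildtype and 10.1% against R167Q, and 34.7% and 22.5% in either direction. Ddr2, a receptor kinase for fibrillar collagen, read 8.6, 7.42, 7.81 and 7.69 in P81S, 9.25, 8.50 and 9.53 in R167Q and 8.82, 9.09 and 9.48 in wildtype. It was 2.38-fold lower than in wildtype (-1.25 ± 0.30, adjusted p 0.0082 in limma) and 2.32-fold lower than in R167Q (adjusted p 0.0156). Mrc2, which takes collagen into cells for breakdown, read 8.54, 7.70, 8.20 and 7.55 in P81S, 9.44, 8.90 and 9.11 in R167Q and 9.18, 9.03 and 9.16 in wildtype. It was 2.19-fold lower than in wildtype (-1.13 ± 0.22, adjusted p 0.00262) and lies on chromosome 11, where the shift-adjusted difference was -0.94. The R167Q call of Ddr2 ended without R167Q replicate 1 (adjusted p 0.0689) or 3 (0.0742).

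Cross-linking enzymes (4 measured) and collagenases (7 measured) gave no call against wildtype in limma's test, with 0 and 1 at an unadjusted p under 0.05, where 43% of all genes were. Against R167Q, Loxl4 was lower (-0.64, adjusted p 0.0253), as was Mmp13, a collagenase of cartilage (-1.10, adjusted p 0.0151). The Loxl4 call ended without P81S replicate 2, 3 or 4 or R167Q replicate 1 or 3, with adjusted p of 0.0516 to 0.0901. The Mmp13 call ended without R167Q replicate 2 (0.0511) or 3 (0.0711). Without P81S replicate 1, 2 of 4 cross-linking enzymes were called lower in P81S than in wildtype, and 3 of 4 than in R167Q, where 36.9% and 26.1% of all genes were called in either direction. Mmp2, a gelatinase, was then also called lower than in wildtype (-0.38, adjusted p 0.0494) and than in R167Q (-0.58, adjusted p 0.00996), against -0.02 and -0.22 with all arrays.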

How the data were processed

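The samples were 10 teratomas on 1-colour Affymetrix arrays. The authors deposited log2 expression values, 1 per probe set and array, for 35556 probe sets. RMA and Partek are listed, with no version, per the submitters' processing notes, and the steps run are not given in the sources used here. Scanner files were not used, so signal over background is unknown, and precision is limited by the number of arrays.

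Probe sets were named from GEO's platform annotation. Of 21218 with 1 gene, 21185 matched by Entrez number in the RefSeq table of GRCm38.p6. All 18820 genes entered 1 linear model of 3 genotype means. It used limma 3.58.1 (lmFit, eBayes with a variance trend, two-sided, 7 residual degrees of freedom) in R 4.3.3, tested on simulated data. Benjamini-Hochberg adjustment ran over the 18820 genes, with calls under 0.05. Promoters came from RefSeq. The table's unused value columns numbered 0.

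Genes to report were major members of each type, every called collagen, the 3 largest rises and falls, and up to 3 called genes of each pathway list. Not all of these have values per array here, and some are given only by a difference or in a figure. Hypoxia-inducible factor targets, Bmp1, marker genes, other called pathway genes and those called only without an array were named after their values were seen. Members and lists were chosen with earlier results of these data known. Alternatives covered normalization, filtering, probe sets, variance models, arrays, chromosome shifts, the replicate number and the P81S clone pairing. Deviations of same-numbered arrays from their group means had correlations of -0.278 to 0.212. Differently numbered arrays were not compared in this way, so a pairing by number was not tested.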

Additional observations from a re-analysis of the deposited data

Results flagged for a closer look

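Among the 42 collagen genes, the 4 P81S tumours were searched for a value whose gap to its nearest neighbour passed Dixon's 95% limit as a share of the group's range. Chance flags about 1 in 20 groups, and 5 of 42 were flagged. P81S replicate 1 was high for Col5a1 (gap share 0.907), Col12a1 (0.845) and Col14a1 (0.929). P81S replicate 4 was low for Col4a4 (0.887) and P81S replicate 2 low for Col9a1 (0.833). Groups of 3 were not searched.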

How the results depend on the processing

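Each of the 42 genes was refitted under 24 alternatives. Col25a1 was called in 24 of 24 against wildtype and against R167Q, Col26a1 in 24 against wildtype and 21 against R167Q, Col2a1 in 24 against R167Q, Col18a1 in 18 and Col6a6 in 15 against wildtype. For R167Q against wildtype every alternative gave 0 collagen calls.

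The count of collagen genes called between P81S and wildtype was 4, and 2 with only the compared groups in the model. It was 7 with P81S replicates 1 and 3 as one clone. Leaving out 1 array gave 2 to 5, with 2 without P81S replicate 3 or 4 or wildtype replicate 1 or 3. Between P81S and R167Q it was 3, and 5 with array weights, with replicates 1 and 3 as one clone or with 1 and 4, and 2 to 5 when 1 array was left out (5 without P81S replicate 1). Of the biosynthesis genes, 7 were called between P81S and wildtype, 12 with array weights (7 lower, 5 higher), and 5 to 9 leaving out 1 array. Between P81S and R167Q 5 were called, 3 with only the compared groups, 10 and 8 under the clone pairings 1 and 3 and 1 and 4, and 2 to 7 leaving out 1 array, with 2 without R167Q replicate 1 and 3 without P81S replicate 2. Between R167Q and wildtype 0 were called, 3 under the clone pairing 1 and 3 and 0 leaving out 1 array. The share of all genes called moved too. Against wildtype it was 34.7%, 31.9% with only the compared groups, 46.1% with array weights and 45.8% with P81S replicates 1 and 3 as one clone. Against R167Q it was 22.5%, 18% with only the compared groups, 31.7% with array weights, and 34.9% and 27.6% under the clone pairings 1 and 3 and 1 and 4. For R167Q against wildtype it was 0.0903%, and 3.42% under the pairing 1 and 3. The cause of these changes was not tested.

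With the replicate number as a block, 2 collagen genes were called between P81S and wildtype and 3 between P81S and R167Q, with 5 biosynthesis genes in each of these comparisons. No label states whether the same number marks a shared batch or host. Signs of differences that were never called were not counted as changes. The dim-gene filter left out 4 collagen genes. Few tumours per genotype, unassigned P81S clones and 1 tumour that stood apart limit these comparisons.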
